A study of Mus musculus with 24 samples.

Results

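The genes described here are 9 that encode factors released by brown fat, among them growth factors and neurotrophic factors: Bmp8b, Nrg4, Nrtn, S100b, Fgf21, Gdf15, Metrnl, Vegfa and Ptgds. They were chosen by gene symbol, with earlier results of these data known. All 9 had a row among the 23017 genes of the table, and all 9 passed the filter on low values, which left out the lowest 25% by mean and kept 17263 genes for testing. The 24 samples were polyA RNA from brown adipose tissue, each of strain C57BL/6J, of mice that the series title calls obese and insulin resistant. They formed 4 groups with 6 samples each. The groups were given vehicle (Vehicle), LAGIPRA (a long-acting agonist of the receptor for the incretin hormone GIP), TZP (tirzepatide, a peptide agonist of both the GIP and the GLP-1 receptor) or vehicle with pair feeding (PairFedVehicle). The comparison with pair-fed animals, whose food is limited to the intake of another group, addresses whether a drug's effect goes beyond that of lower food intake. The sources used here do not give the group that set the amount of food, nor the doses, duration, diet, age or sex. The labels number the samples of a group but do not state that each came from a separate mouse, so p-values measure the spread between these samples.

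Brown fat burns fuel to make heat and also secretes proteins and lipid mediators. Bone morphogenetic proteins act through type 1 and type 2 serine kinase receptors and SMAD proteins, neuregulins through ErbB receptors, and neurturin through a GFRA co-receptor and the kinase RET. Several of these factors are known in brown fat for guiding sympathetic nerves and blood vessels, on which thermogenesis depends. Ptgds, by contrast, encodes an enzyme of the lipocalin family, secreted itself, that makes prostaglandin D2.

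The values were log2 expression values as deposited, with 1 unit a doubling, on a scale inferred from the values to have an offset near 1, which understates fold changes of weakly expressed genes such as Bmp8b and Fgf21. Read numbers per library were unknown. All 9 brown adipocyte markers were expressed, and the uncoupling protein gene Ucp1 had group means from 14.90 to 15.39. TZP libraries 3 to 6 stood apart by lower values of long transcripts, with slopes on transcript length from -0.127 to -0.0598 log2 units per doubling against -0.00873 to 0.0531 in the other 20. The value taken for 1 read was the most frequent low value in a library, expected to be higher where fewer reads were counted. It was inferred and could not be checked against counts. It ran from 0.89 to 1.35 in Vehicle, 1.12 to 1.68 in LAGIPRA, 0.96 to 1.53 in TZP and 1.02 to 1.26 in PairFedVehicle. Skeletal muscle markers averaged from 0.847 to 1.15 in Vehicle 1, TZP 3 and PairFedVehicle 5 and from 4.56 to 10.5 in the others. The part of these differences in the results below was not tested. For members and pathway genes, values from models that hold them are given beside the calls that they ended. Calls of cell type markers were not repeated in such models. In bulk tissue, fewer cells of a type and less RNA per cell cannot be told apart.

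The sequences below are the 250 bases upstream of the RefSeq start sites of 5 of the genes (RefSeq, GRCm38.p6). Of these, Ptgds, S100b and Bmp8b had their lowest group median in the pair-fed group, and Nrtn and Nrg4 had theirs in Vehicle. These patterns were not particular to the 5 genes shown. Fgf21 also had its lowest median in the pair-fed group (3.29) and Vegfa in Vehicle (7.40), and their sequences are not printed. Each is written 5′ to 3′ on the gene's strand. Capitals mark, on either strand, the hypoxia response core ACGTG, the CCAAT box CCAAT, the nuclear receptor motif AGGTCA, the cAMP response element core TGACG and the TATA box TATAAA.
Ptgds: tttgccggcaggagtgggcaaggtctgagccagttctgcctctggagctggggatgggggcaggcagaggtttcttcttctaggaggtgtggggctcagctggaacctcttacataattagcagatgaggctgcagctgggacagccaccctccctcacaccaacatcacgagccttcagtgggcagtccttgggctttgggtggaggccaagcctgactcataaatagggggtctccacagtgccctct
S100b: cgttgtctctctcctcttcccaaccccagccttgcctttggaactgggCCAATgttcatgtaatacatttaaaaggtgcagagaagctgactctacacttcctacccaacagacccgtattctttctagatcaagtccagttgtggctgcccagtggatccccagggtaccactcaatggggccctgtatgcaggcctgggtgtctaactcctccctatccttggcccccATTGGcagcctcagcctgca
Bmp8b: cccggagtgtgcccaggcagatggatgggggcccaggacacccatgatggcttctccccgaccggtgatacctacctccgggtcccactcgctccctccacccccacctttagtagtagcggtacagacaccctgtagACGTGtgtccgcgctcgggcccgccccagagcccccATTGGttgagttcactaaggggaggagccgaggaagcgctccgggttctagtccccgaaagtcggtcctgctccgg
Nrtn: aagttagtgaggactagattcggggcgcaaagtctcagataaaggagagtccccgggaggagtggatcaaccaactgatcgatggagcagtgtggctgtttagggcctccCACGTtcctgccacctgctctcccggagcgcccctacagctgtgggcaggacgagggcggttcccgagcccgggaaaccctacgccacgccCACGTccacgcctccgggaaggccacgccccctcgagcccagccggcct
Nrg4: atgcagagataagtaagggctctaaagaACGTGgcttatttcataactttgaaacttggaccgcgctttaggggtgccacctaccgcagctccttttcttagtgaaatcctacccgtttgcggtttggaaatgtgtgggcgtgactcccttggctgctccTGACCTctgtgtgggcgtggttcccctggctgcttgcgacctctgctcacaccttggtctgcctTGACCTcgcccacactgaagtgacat
These stretches lie at chr2:25469750-25469999 (minus strand, Ptgds), chr10:76253586-76253835 (plus strand, S100b), chr4:123104911-123105160 (plus strand, Bmp8b), chr17:56757549-56757798 (minus strand, Nrtn) and chr9:55283626-55283875 (minus strand, Nrg4). The transcribed bases after the start were found in a GENCODE M21 transcript of the gene for Ptgds, Bmp8b and Nrg4, and not for S100b and Nrtn. S100b held CCAAT at 202 and 20 bases before the start, Bmp8b held ACGTG at 112 and CCAAT at 76, Nrtn held ACGTG at 140 and 49, and Nrg4 held ACGTG at 222 and AGGTCA at 90 and 26. The Ptgds stretch held none of the 5. Of 32851 mouse promoters of the same length, 16.6% held ACGTG, 33.8% CCAAT, 14% AGGTCA, 17.8% TGACG and 12.4% TATAAA. The core ACGTG also occurs within the E-box CACGTG (6.02% of promoters), which none of the 5 held, and no marked motif was in all 5. Of the other motifs searched, the GC box GGGCGG (32.7% of promoters) lay in Bmp8b at 92 and in Nrtn at 86 bases before the start. The C/EBP-ATF response element TGATGCAA (0.791%), TGACGTCA (1.55%), TCAAGGTCA (0.387%) and TGTTCT (16.1%) were in none of the 5. The start of Fgf21, a gene known as a target of the integrated stress response, held TGATGCAA at 139 bases, CACGTG at 50 and TATAAA at 28. A match is a stretch of letters and says nothing of whether a factor binds there.

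In TZP against Vehicle, 3 of the 9 genes rose, and none fell, where 11.7% of all genes tested passed as higher and 10.3% as lower (limma, Benjamini-Hochberg adjusted over all 17263 genes, threshold 0.05, two-sided). In LAGIPRA against Vehicle 4 rose and none fell, where 8.70% of all genes passed as higher and 5.03% as lower. In PairFedVehicle against Vehicle 2 rose and 2 fell, against 4.96% higher and 3.66% lower over all genes. Against the pair-fed group 3 were higher in TZP, and none lower, where 8.39% of all genes were higher and 8.02% lower. In LAGIPRA 2 were higher than in the pair-fed group and none lower, against 7.30% and 4.55% of all genes. Between TZP and LAGIPRA none of the 9 passed, where 0.0521% of all genes were higher and 0.348% lower, and none had an unadjusted p under 0.05. The groups did not overlap for 2 members in TZP against Vehicle (5.45% of all genes), 4 in LAGIPRA against Vehicle (4.65%) and 1 in PairFedVehicle against Vehicle (4.76%). The same held for 2 in TZP against the pair-fed group (4.92%), 2 in LAGIPRA against the pair-fed group (5.86%) and none in TZP against LAGIPRA (0.811%). Whether the 9 genes stand apart from other genes was not tested, and they were chosen with earlier results of these data known. The median change over the 9 genes was 0.29 in TZP, 0.32 in LAGIPRA and -0.36 in the pair-fed group against Vehicle, where all tested genes had medians of 0.04, 0.03 and 0.02. The comparisons share groups (Vehicle serves 3 of them), so they are not independent of each other.

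**Figure D1:**
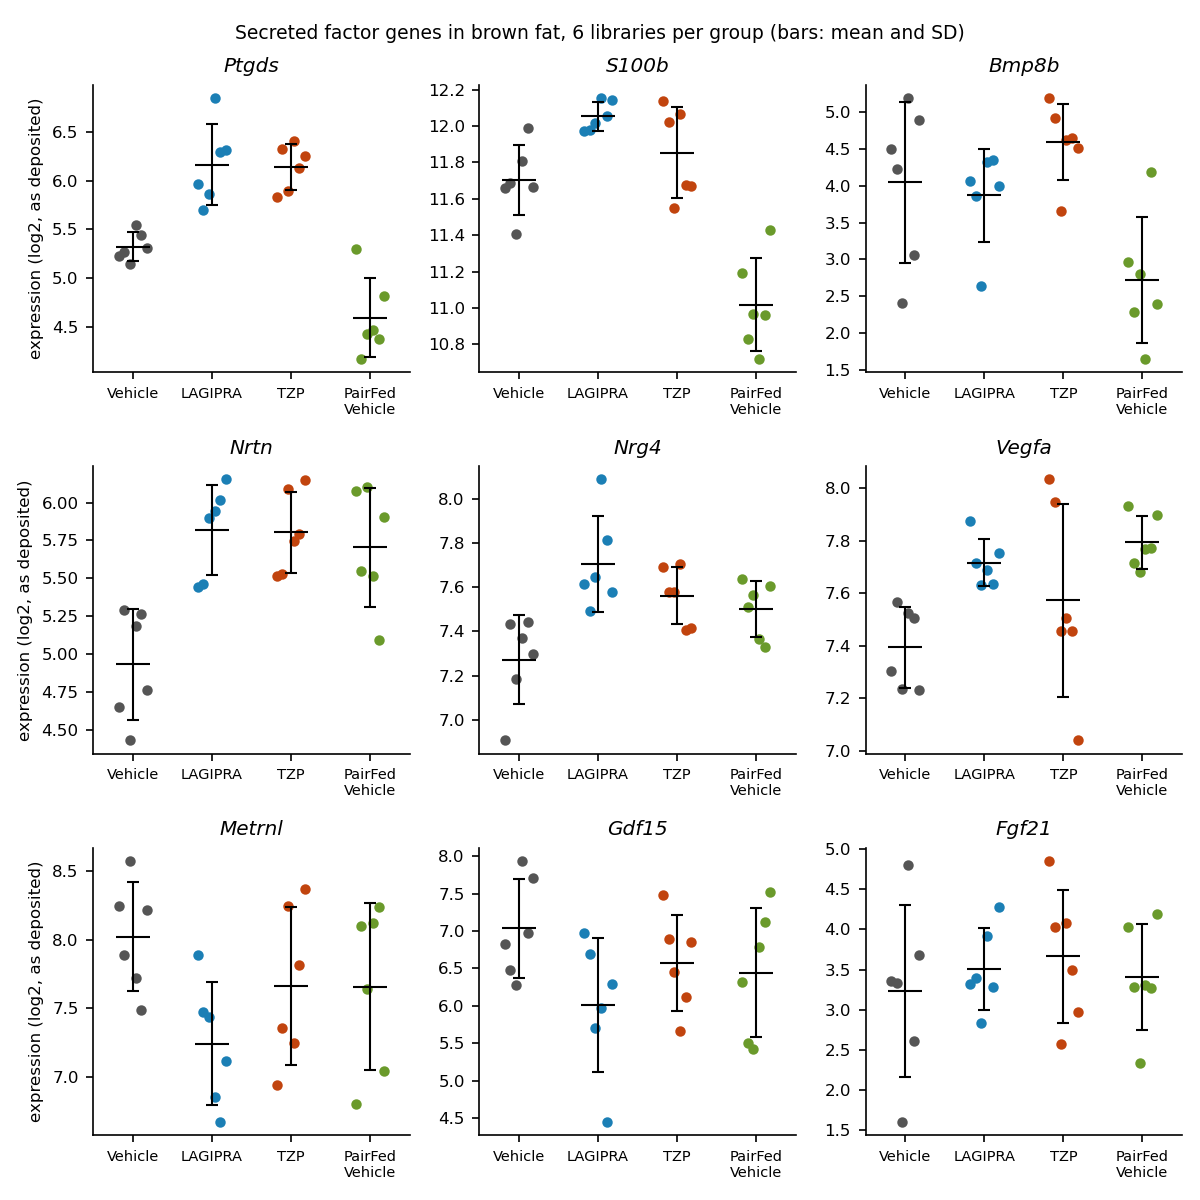
Each point is the log2 value as deposited (vertical axis, a separate range for each gene) in 1 library, by group on the horizontal axis, with the group mean and SD as bars. Ptgds was higher in all 12 LAGIPRA and TZP libraries than in any Vehicle library, and 5 of 6 pair-fed libraries lay below all Vehicle libraries.

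Ptgds, the prostaglandin D synthase gene, took 3 levels in these groups: lowest with pair feeding, intermediate with vehicle and highest with either drug. In Vehicle the log2 values ran from 5.14 to 5.55 with a median of 5.29, and in PairFedVehicle from 4.17 to 5.30 with a median of 4.44. In LAGIPRA they ran from 5.70 to 6.85 (median 6.13) and in TZP from 5.83 to 6.41 (median 6.19). No drug-treated library overlapped with either vehicle group, while 1 pair-fed library, the highest of its group, lay within the Vehicle range. Ptgds rose by 0.84 in LAGIPRA (SE 0.178, 1.79-fold, adjusted p = 0.00783) and by 0.82 in TZP (SE 0.178, 1.76-fold, adjusted p = 0.00337), and fell by 0.73 in the pair-fed group (SE 0.178, 1.66-fold, adjusted p = 0.0116). Against the pair-fed group it was 2.97-fold higher in LAGIPRA (log2 difference 1.57, 95% interval 1.20 to 1.94, adjusted p = 4.76e-06) and 2.92-fold higher in TZP (1.55, 1.18 to 1.92, adjusted p = 6.24e-06). The exact permutation test over all assignments of the 12 samples gave 0.00216 for both, two-sided and the smallest p it can give. Between the drugs the difference was -0.02 (95% interval -0.39 to 0.34). The fall with pair feeding and both differences from the pair-fed group passed under all alternatives. The rise in LAGIPRA over Vehicle was 0.57 (adjusted p = 0.130) in a model with the value of 1 read, and that in TZP was 0.57 (adjusted p = 0.241) in a model with the length slope and 0.76 (adjusted p = 0.0942) from TZP libraries 1 and 2.

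S100b encodes a calcium-binding protein that brown adipocytes release and that promotes the growth of sympathetic nerve fibres. It fell with pair feeding and was higher in both drug groups than in the pair-fed group. The log2 values ran from 11.40 to 11.99 in Vehicle (median 11.68) and from 10.72 to 11.43 in PairFedVehicle (median 10.97). They ran from 11.97 to 12.16 in LAGIPRA (median 12.04) and from 11.55 to 12.14 in TZP (median 11.85). All LAGIPRA and TZP libraries lay above all pair-fed libraries, and 5 of 6 pair-fed libraries lay below all Vehicle libraries. S100b fell by 0.69 with pair feeding (SE 0.115, 1.61-fold, adjusted p = 0.000537). It was 2.05-fold higher in LAGIPRA than in the pair-fed group (1.04, 95% interval 0.80 to 1.27, adjusted p = 3.92e-06) and 1.79-fold higher in TZP (0.84, 0.60 to 1.08, adjusted p = 5.27e-05). These 3 differences passed under all alternatives. LAGIPRA exceeded Vehicle by 0.35 (1.28-fold, adjusted p = 0.0448), with 4 of 6 LAGIPRA libraries above all Vehicle libraries. That call ended when any of 8 libraries was left out (Vehicle 1, 2, 3 or 6, LAGIPRA 3, 4, 5 or 6, with changes from 0.29 to 0.36 and adjusted p from 0.0588 to 0.119) and in 5 of 13 other settings. In a model with the value of 1 read, 1 of the 5, the change was 0.18 (adjusted p = 0.421). TZP differed from Vehicle by 0.15 (95% interval -0.09 to 0.39, adjusted p = 0.363).

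Schwann cells also express S100b, and their 7 markers were all in the table and none was at 0 in any library. The mean over these markers ran from 3.46 to 4.52 in Vehicle, 3.32 to 4.67 in PairFedVehicle, 3.77 to 5.41 in LAGIPRA and 3.30 to 4.75 in TZP. Averaged by group, it was 3.91 in PairFedVehicle, 4.13 in Vehicle, 4.31 in TZP and 4.50 in LAGIPRA, with SDs from 0.37 to 0.63. Of the 6 tested, 1 (Cdh19, an adhesion gene) passed in PairFedVehicle against Vehicle, and it was higher by 0.61 (adjusted p = 0.033), while S100b was lower. The median change over the 6 was -0.06 in that comparison. Against the pair-fed group it was 0.56 in LAGIPRA and 0.14 in TZP, and none of the 6 passed. Cdh19 also passed as higher in LAGIPRA against Vehicle. Markers of brown adipocytes ran from 10.8 to 11.3 in PairFedVehicle and from 10.5 to 11.1 in Vehicle, with 4 of 9 higher in the pair-fed group and none lower. Relative to Vehicle, 5 of 9 were also higher in LAGIPRA (median change 0.41) and 2 of 9 in TZP (0.35), and none was lower. None of the 9 passed in either drug group against the pair-fed group. The part of either cell type in the S100b values, or of brown adipocytes in the Nrg4 values, was not tested.

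Bmp8b, a bone morphogenetic protein gene known in brown fat for raising the response to noradrenaline, was low and variable. In Vehicle the log2 values ran from 2.41 to 5.19 (median 4.36) and in PairFedVehicle from 1.65 to 4.18 (median 2.60). They ran from 2.64 to 4.35 in LAGIPRA (median 4.02) and from 3.66 to 5.19 in TZP (median 4.63). Of the 6 TZP libraries, 5 lay above all pair-fed libraries, whereas Vehicle spanned most of the range of the other groups. Bmp8b was 3.66-fold higher in TZP than in PairFedVehicle (1.87, 95% interval 0.96 to 2.78, adjusted p = 0.00594, exact permutation p = 0.00433). In a model with the length slope this difference was 1.91 (adjusted p = 0.0576). The pair-fed values were -1.33 relative to Vehicle (95% interval -2.24 to -0.42, adjusted p = 0.0621) and LAGIPRA was 1.15 above the pair-fed group (0.24 to 2.06, adjusted p = 0.0915), and neither passed. Both passed without PairFedVehicle 5, the highest pair-fed library (changes of -1.62 and 1.45, adjusted p of 0.0183 and 0.0336). The first also passed without Vehicle 3 (-1.66, adjusted p = 0.0162) or Vehicle 5 (-1.53, adjusted p = 0.0346), and the second without LAGIPRA 3 (1.40, adjusted p = 0.0424). Both also passed with array weights (-1.58 and 1.19, adjusted p of 0.0148 and 0.0467) and without the libraries low in muscle (-1.53 and 1.45, adjusted p of 0.0383 and 0.0344), and the first in a model with the value of 1 read (-1.50, adjusted p = 0.0335). TZP and LAGIPRA differed by 0.72 (95% interval -0.19 to 1.63, adjusted p = 0.429). The paralog Bmp8a had no row in the table and was not analysed here. Of the 2891 stretches of 50 bases in the longest Bmp8b transcript of GENCODE M21, 210 (7.26%) also occur in Bmp8a, and Oxct2b lies at the same locus, so the counting of Bmp8b is uncertain.

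Nrtn, which encodes neurturin, a GDNF family ligand that supports neurons, rose in all 3 groups relative to Vehicle. The log2 values ran from 4.43 to 5.29 in Vehicle (median 4.98) and from 5.09 to 6.10 in PairFedVehicle (median 5.73). They ran from 5.44 to 6.16 in LAGIPRA (median 5.92) and from 5.51 to 6.15 in TZP (median 5.77). Neither drug group overlapped with Vehicle, and 5 of 6 pair-fed libraries lay above all Vehicle libraries. The rise was 0.89 in LAGIPRA (SE 0.185, 1.85-fold, adjusted p = 0.00726), 0.87 in TZP (1.83-fold, adjusted p = 0.00288) and 0.77 in the pair-fed group (1.71-fold, adjusted p = 0.0103). The pair-fed rise passed under all alternatives. The LAGIPRA rise was 0.83 (adjusted p = 0.0835) in a model with the value of 1 read, and the TZP rise was 0.51 (adjusted p = 0.293) in a model with the length slope and 0.59 (adjusted p = 0.172) from TZP libraries 1 and 2. Relative to the pair-fed group Nrtn differed by 0.10 in TZP (95% interval -0.29 to 0.48) and by 0.11 in LAGIPRA (-0.27 to 0.50), and neither passed.

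Nrg4, an epidermal growth factor family gene whose product is released by brown adipocytes and signals through ErbB4, rose in both drug groups. The log2 values ran from 6.91 to 7.44 in Vehicle (median 7.33) and from 7.33 to 7.64 in PairFedVehicle (median 7.54). They ran from 7.49 to 8.09 in LAGIPRA (median 7.63) and from 7.41 to 7.70 in TZP (median 7.58). LAGIPRA did not overlap with Vehicle, and 4 of 6 libraries lay above all Vehicle libraries both in TZP and in the pair-fed group. Nrg4 rose by 0.43 in LAGIPRA (SE 0.099, 1.35-fold, adjusted p = 0.0112) and by 0.29 in TZP (1.22-fold, adjusted p = 0.0396), and the pair-fed change of 0.23 did not pass (95% interval 0.02 to 0.43, adjusted p = 0.162). The LAGIPRA change was 0.27 (adjusted p = 0.170) in a model with the value of 1 read. The TZP call ended when any of 7 libraries was left out (Vehicle 1, 3 or 6, TZP 1, 2, 3 or 4, with changes from 0.22 to 0.29 and adjusted p from 0.0561 to 0.113) and in 7 of 14 other settings, among them models with the value of 1 read (0.14, adjusted p = 0.347) and with the length slope (0.32, adjusted p = 0.246). TZP differed from the pair-fed group by 0.06 (95% interval -0.15 to 0.26). The span of Nrg4, introns included, overlaps with that of Fbxo22, and whether their exons overlap was not examined. Reads from any shared exon could not be told apart unless counting used strand, which was not stated.

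**Figure D2:**
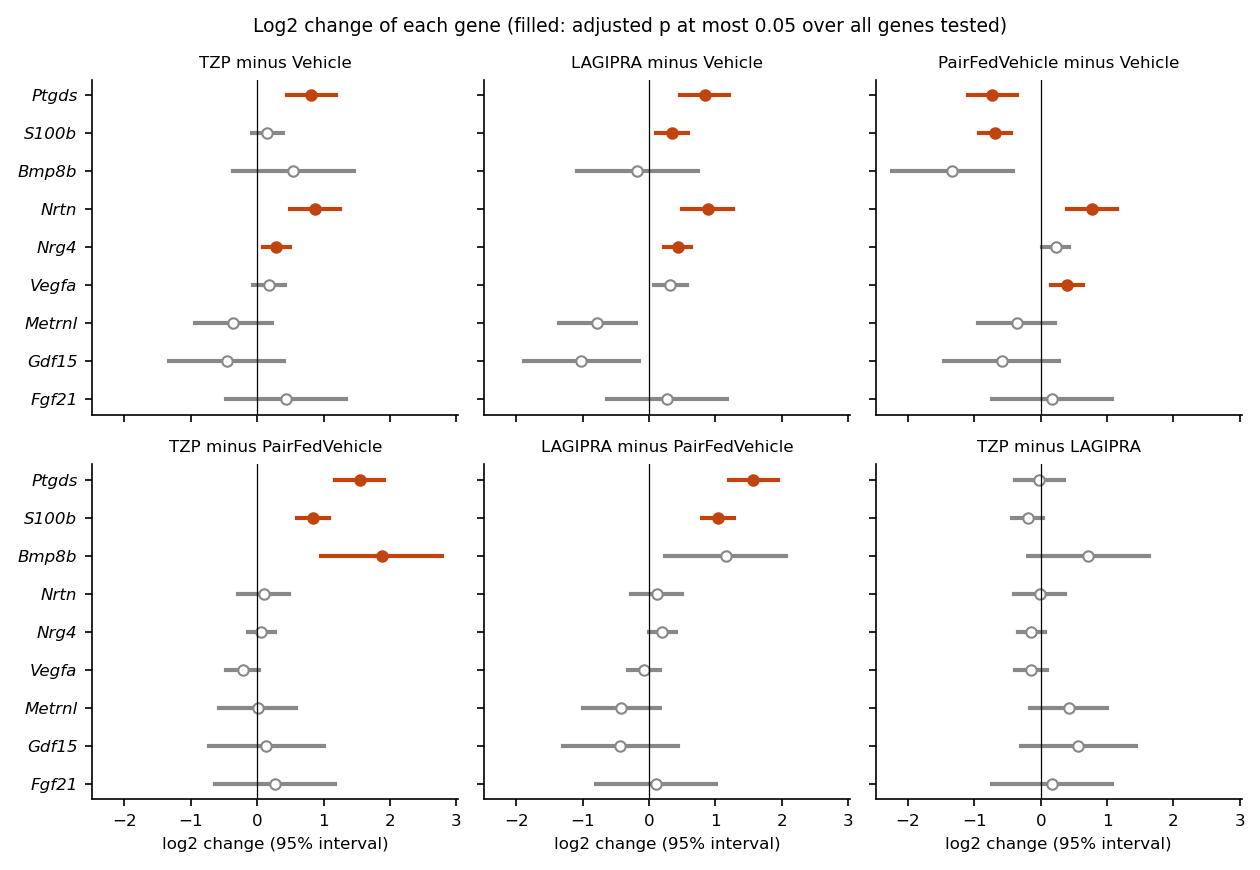
Each panel gives the log2 change (horizontal axis) of the 9 genes (vertical axis) in 1 comparison as a point with its 95% interval; filled points had an adjusted p of at most 0.05. The intervals of Ptgds and S100b lie to the left of 0 in PairFedVehicle minus Vehicle and to the right of 0 in both comparisons of a drug with the pair-fed group, and no point for TZP minus LAGIPRA is filled.

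Vegfa, the gene for a growth factor of blood vessels, was higher with pair feeding than with vehicle. The log2 values ran from 7.23 to 7.57 in Vehicle (median 7.40) and from 7.68 to 7.93 in PairFedVehicle (median 7.77). They ran from 7.63 to 7.88 in LAGIPRA (median 7.70), and in TZP they were 8.03, 7.95, 7.45, 7.50, 7.45 and 7.04 in libraries 1 to 6. PairFedVehicle and LAGIPRA did not overlap with Vehicle, while TZP held both the highest and the lowest value of the 24. Vegfa rose by 0.40 with pair feeding (SE 0.118, 1.32-fold, adjusted p = 0.0363), a call that ended when Vehicle 1, 3 or 6 or PairFedVehicle 1, 4 or 6 was left out (changes from 0.37 to 0.41, adjusted p from 0.0528 to 0.0826). It also ended in 3 of 13 other settings: in a model with the value of 1 read (0.34, adjusted p = 0.0549), with the length correction (0.39, adjusted p = 0.0542) and without the libraries low in muscle (0.39, adjusted p = 0.0989). The LAGIPRA change of 0.32 (1.25-fold, exact permutation p = 0.00216) had an adjusted p of 0.0672 and did not pass. It passed in a fit of only these 2 groups (adjusted p = 0.0189), with array weights (adjusted p = 0.0135) and in a model with the length slope (0.48, adjusted p = 0.0045). In a model with the value of 1 read it was 0.17 (adjusted p = 0.489). The TZP change was 0.18 (95% interval -0.07 to 0.42, adjusted p = 0.291). It passed at 0.65 (adjusted p = 0.0162) in a model with the length slope and at 0.60 (adjusted p = 0.0068) from TZP libraries 1 and 2. TZP differed from the pair-fed group by -0.22 (95% interval -0.47 to 0.02, adjusted p = 0.216), and without TZP 1 by -0.31 (adjusted p = 0.0474).

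Receptors for VEGF were lower in TZP. Of 5 receptor genes, 4 were lower in TZP than in Vehicle: Nrp2 (-1.29, adjusted p = 0.0016), Nrp1 (-0.79, adjusted p = 0.0040), Flt1 (-1.22, adjusted p = 0.0050) and Kdr (-0.76, adjusted p = 0.0146). Flt1 and Kdr encode VEGF receptors 1 and 2, and the neuropilins Nrp1 and Nrp2 are co-receptors. None of the 5 passed in LAGIPRA or PairFedVehicle against Vehicle or in TZP against LAGIPRA, and 3 of 5 were lower in TZP than in the pair-fed group. Flt1 stood at 6.82 and 7.06 in TZP libraries 1 and 2 and at 5.60, 5.24, 4.92 and 4.74 in libraries 3 to 6, with a Vehicle range of 6.84 to 7.11. From TZP libraries 1 and 2, the changes from Vehicle were -0.00217 (Flt1), 0.06 (Kdr), -0.12 (Nrp1) and -0.26 (Nrp2), and none passed. In a model with the length slope they were 0.17, 0.28, -0.02 and -0.11 in the same order, and none passed. The Kdr call also ended in a fit of only the 2 groups (adjusted p = 0.0743). The 3 differences from the pair-fed group (Flt1, Kdr and Nrp2) ended in each of these 3 settings. The mean of 7 endothelial markers ran from 7.11 to 7.46 in TZP and from 7.60 to 7.81 in Vehicle. Of the 7, 5 were lower in TZP, calls that were not repeated in these 3 settings. Among relatives of the members, Vegfb, the gene for another VEGF, was higher than in Vehicle by 0.45 in TZP (adjusted p = 0.0129) and by 0.48 in LAGIPRA (adjusted p = 0.0166). These calls ended in a model with the value of 1 read (0.37 and 0.40, adjusted p of 0.0798 and 0.170), and the TZP call also in a model with the length slope (0.31, adjusted p = 0.356) and from TZP libraries 1 and 2 (0.43, adjusted p = 0.161). Vegfd was lower in the pair-fed group than in Vehicle (-0.63, adjusted p = 0.0141), in TZP (0.61, adjusted p = 0.0115) and in LAGIPRA (0.65, adjusted p = 0.0086). The difference from TZP did not pass in a model with the length slope or from TZP libraries 1 and 2.

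**Figure D3:**
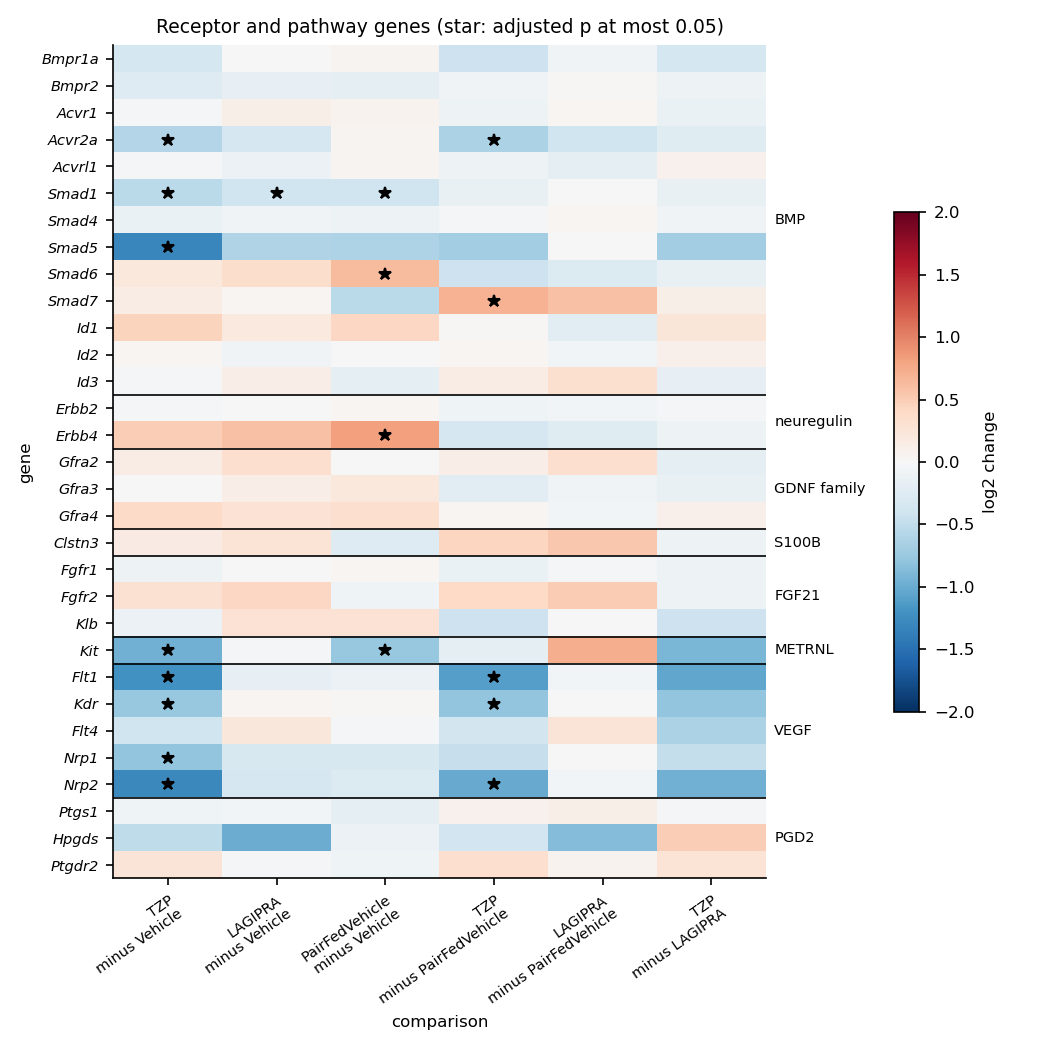
The colour of each cell is the log2 change (colour bar) of a tested receptor or pathway gene (rows, grouped by the ligand family named at the right) in 1 comparison (columns); stars mark an adjusted p of at most 0.05. Of the VEGF rows, 4 are starred in TZP minus Vehicle, none is in LAGIPRA minus Vehicle, and the 3 GDNF family and 3 FGF21 rows hold no star.

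Metrnl, Gdf15 and Fgf21 passed in none of the 6 comparisons. Metrnl encodes a secreted factor related to meteorin that is released by adipose tissue, muscle and macrophages. Its log2 values ran from 7.49 to 8.58 in Vehicle (median 8.05), from 6.67 to 7.89 in LAGIPRA (median 7.28), from 6.94 to 8.37 in TZP (median 7.59) and from 6.80 to 8.24 in PairFedVehicle (median 7.87). Of the 6 LAGIPRA libraries, 5 lay below all Vehicle libraries, and the change was -0.78 (95% interval -1.36 to -0.20, adjusted p = 0.0624, exact permutation p = 0.013). It passed without Vehicle 5 or LAGIPRA 1 (changes of -0.89 and -0.91, adjusted p of 0.0333 and 0.0383), in a fit of only these 2 groups (adjusted p = 0.0319), with array weights (-0.81, adjusted p = 0.0154) and in a model with the length slope (-0.94, adjusted p = 0.0329). In a model with the value of 1 read it was -0.29 (adjusted p = 0.578). Macrophage markers were lower in LAGIPRA too: 4 of 7 fell (C1qa, Mrc1, C1qb and Cd68), none was at 0, and their mean ran from 8.08 to 9.16 in LAGIPRA and from 8.64 to 9.86 in Vehicle. These marker calls were not repeated with the value of 1 read, with which 45 genes in place of 2370 passed in this comparison.

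Gdf15 encodes a stress-induced hormone that acts through the receptor GFRAL in the hindbrain. Its log2 values ran from 6.28 to 7.94 in Vehicle (median 6.90), from 4.45 to 6.97 in LAGIPRA (median 6.13), from 5.67 to 7.48 in TZP (median 6.65) and from 5.42 to 7.52 in PairFedVehicle (median 6.55). The groups overlapped, and the change was -1.02 in LAGIPRA (95% interval -1.89 to -0.15, adjusted p = 0.0982), -0.46 in TZP (-1.32 to 0.41) and -0.59 with pair feeding (-1.46 to 0.28). Fgf21, the gene for an endocrine fibroblast growth factor that brown fat makes under cold, was weakly expressed. Its log2 values ran from 1.60 to 4.81 in Vehicle (median 3.34), from 2.84 to 4.28 in LAGIPRA (median 3.35), from 2.58 to 4.86 in TZP (median 3.76) and from 2.34 to 4.19 in PairFedVehicle (median 3.29). All 4 groups overlapped, and the changes from Vehicle were 0.27 (95% interval -0.63 to 1.18), 0.44 (-0.47 to 1.34) and 0.17 (-0.73 to 1.08) in the order LAGIPRA, TZP and PairFedVehicle. Of the integrated stress response, whose factor ATF4 is known to drive Fgf21 and Gdf15, 9 of 9 listed genes were tested. Psat1, which encodes an enzyme of serine synthesis, was lower than in Vehicle by -0.44 in TZP (adjusted p = 0.0195), -0.72 in LAGIPRA (adjusted p = 0.0051) and -0.57 with pair feeding (adjusted p = 0.0078). The pair-fed call passed under all alternatives. In a model with the value of 1 read the TZP change was -0.32 (adjusted p = 0.144) and the LAGIPRA change -0.58 (adjusted p = 0.0777). The TZP call also ended in a model with the length slope (-0.34, adjusted p = 0.343), from TZP libraries 1 and 2 (-0.51, adjusted p = 0.114) and without TZP 4 (-0.40, adjusted p = 0.0505). Asns, the asparagine synthetase gene, rose by 0.36 in LAGIPRA (adjusted p = 0.0084), and by 0.24 (adjusted p = 0.135) in a model with the value of 1 read, which ended the call. Atf5 was higher in TZP than in the pair-fed group by 0.49 (adjusted p = 0.0113), a call that passed under all alternatives. Atf4, Ddit3, Trib3 and Chac1 passed in no comparison.

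Other receptors and signalling genes were examined by list. Over the 12 lists, 63 of 89 genes were tested. In TZP against Vehicle 3 passed as higher and 9 as lower, where 11.7% and 10.3% of all genes did. In LAGIPRA against Vehicle 6 and 2 passed, against 8.70% and 5.03% of all genes. In PairFedVehicle against Vehicle 4 and 6 passed, against 4.96% and 3.66% of all genes. Whether the lists stand apart from other genes was not tested. Of the BMP list 13 of 16 genes were tested. Smad1, a signal transducer of BMP receptors, was lower than in Vehicle by -0.54 in TZP (adjusted p = 0.0016), -0.40 in LAGIPRA (adjusted p = 0.0184) and -0.40 with pair feeding (adjusted p = 0.0175). The inhibitory Smad6 rose by 0.63 with pair feeding (adjusted p = 0.0087), and the inhibitory Smad7 was 0.69 higher in TZP than in the pair-fed group (adjusted p = 0.0204). The Smad1 call in LAGIPRA ended without Vehicle 3 (-0.33, adjusted p = 0.0541) and the Smad7 call without PairFedVehicle 4 (0.62, adjusted p = 0.0535). The LAGIPRA call of Smad1 also ended in a model with the value of 1 read (-0.32, adjusted p = 0.181), and its TZP call in a model with the length slope (-0.50, adjusted p = 0.108). The Smad7 call also ended in a model with the length slope (0.75, adjusted p = 0.101) and from TZP libraries 1 and 2 (0.87, adjusted p = 0.0895), and the Smad6 call in a fit of only the 2 groups. Smad5 was lower in TZP than in Vehicle by -1.30 (adjusted p = 0.0034). Its change was -0.27 (adjusted p = 0.579) from TZP libraries 1 and 2 and -0.06 (adjusted p = 0.918) in a model with the length slope. Id1, Id2 and Id3, common targets of BMP signals, passed in no comparison.

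Erbb4, the receptor of Nrg4, had means of 3.98 ± 0.67 in Vehicle, 4.57 ± 0.42 in LAGIPRA, 4.48 ± 0.25 in TZP and 4.80 ± 0.28 in PairFedVehicle (log2, SD, n = 6). Its rise with pair feeding was 0.83 (adjusted p = 0.0359), a call that ended when any of Vehicle 1, 3 or 6 or PairFedVehicle 1 to 5 was left out (changes from 0.61 to 0.86, adjusted p from 0.0534 to 0.0874). It also ended in a fit of only the 2 groups (adjusted p = 0.0856), in a model with the value of 1 read (0.71, adjusted p = 0.0558) and without the libraries low in muscle (0.59, adjusted p = 0.134). Egfr and Erbb3 fell below the filter on low values. Ret and Gfra1 were also below that filter, and Gfra2, the co-receptor that neurturin prefers, passed in no comparison, with means from 4.15 to 4.49. Gfral had no row in the table. Kit, reported as a receptor of METRNL, was lower by -0.96 in TZP than in Vehicle (adjusted p = 0.0075) and by -0.76 with pair feeding (adjusted p = 0.0494), against -0.04 in LAGIPRA (adjusted p = 0.929). From TZP libraries 1 and 2 the TZP difference was -0.70 (adjusted p = 0.152), and in a model with the length slope -0.61 (adjusted p = 0.338). The pair-fed call ended when any library but Vehicle 2 or 6 was left out (adjusted p from 0.0526 to 0.103), and in 5 other settings (adjusted p from 0.0501 to 0.159). Klb and Fgfr1, which together receive FGF21, and Clstn3, whose product is known to promote secretion of S100B, passed in no comparison. Hpgds, the other prostaglandin D synthase, did not pass in LAGIPRA against Vehicle (95% interval of the log2 change -1.74 to -0.25, adjusted p = 0.0654). Among other secreted factors of brown fat, Pm20d1, which encodes an enzyme that makes N-acyl amino acids, ran from 3.96 to 4.52 in Vehicle, 3.90 to 4.47 in PairFedVehicle, 4.77 to 5.32 in LAGIPRA and 4.74 to 5.37 in TZP (log2), so neither drug group overlapped with either vehicle group. It was higher in LAGIPRA than in Vehicle by 0.81 (adjusted p = 0.0038) and than in the pair-fed group by 0.82 (adjusted p = 0.0003), and in TZP by 0.77 (adjusted p = 0.0010) and 0.78 (adjusted p = 0.0006). All of these but LAGIPRA against Vehicle, which ended in a model with the value of 1 read, passed under all alternatives.

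For each of the 6 genes that passed somewhere, the 3 tested genes with the highest Pearson r over the 24 libraries were taken as most like it in pattern. These are descriptions, since the libraries share their groups. For Ptgds they were Thrsp (r = 0.939), Tars2 (0.929) and Ppdpf (0.926). Thrsp, a regulator of lipogenesis, had group means of 13.5 in Vehicle, 14.4 in LAGIPRA, 14.2 in TZP and 12.5 in PairFedVehicle, so that, as for Ptgds, the pair-fed mean was the lowest and the 2 drug means the highest. For S100b they were Fam57b (0.958), the glycolytic gene Pkm (0.943) and Grb14 (0.943), an adaptor that inhibits insulin receptor signalling. For Bmp8b they were Pfkp (0.827), which encodes a phosphofructokinase, Smad7 (0.796) and Pak1ip1 (0.788). For Nrtn they were Fxyd1 (0.905), Zswim7 (0.891) and Dusp28 (0.887), and for Nrg4 Gatb (0.919), Adck1 (0.880) and Samm50 (0.872), the last 3 with products in mitochondria. For Vegfa they were Arhgef15 (0.902), Abcd3 (0.871) and Adcy3 (0.869).

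**Figure D4:**
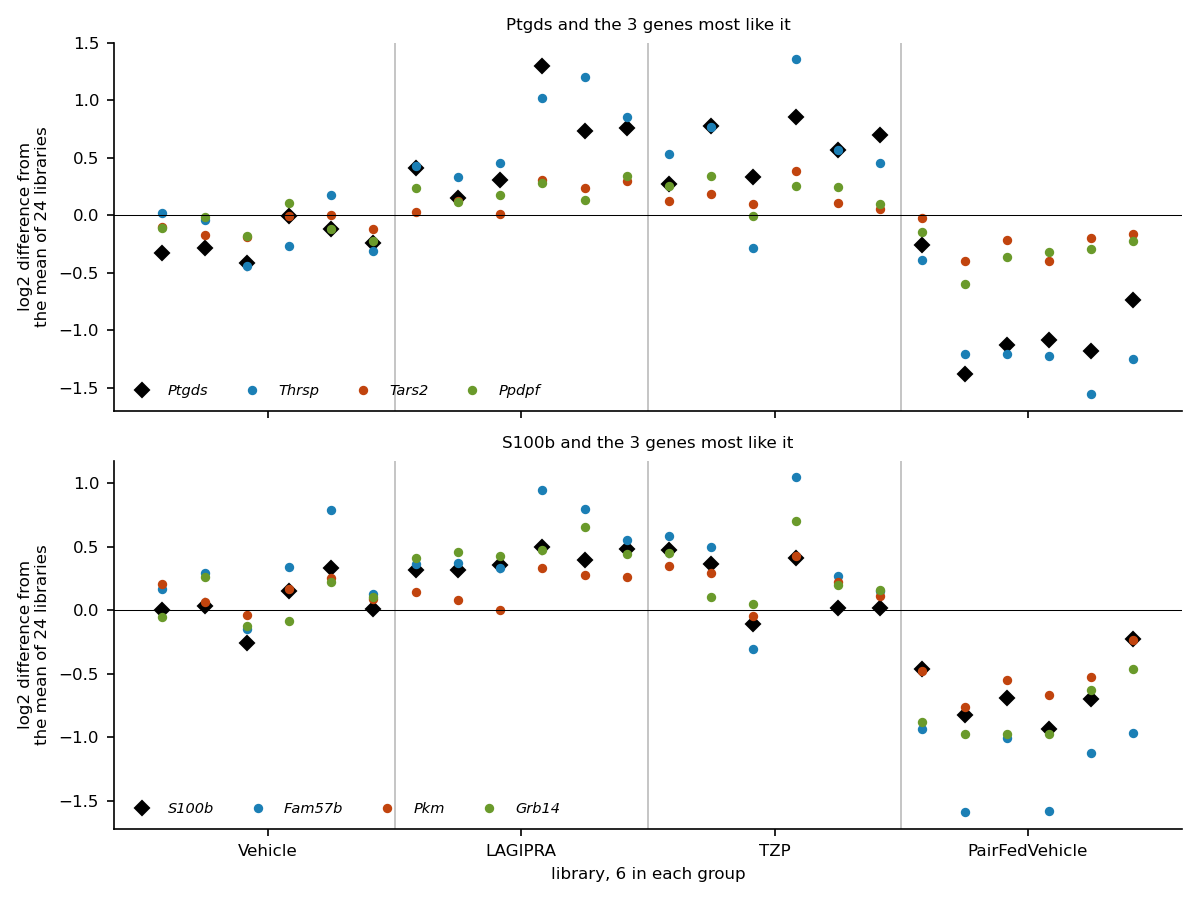
Each point is the difference of a gene's log2 value in 1 library from its mean over the 24 libraries (vertical axis), with libraries by group along the horizontal axis. Diamonds show Ptgds (top) and S100b (bottom) and circles the 3 genes most like each. In both panels all 4 genes are below their means in the 6 pair-fed libraries.

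The variation of the 9 genes between libraries of a group was set beside that of 10 lists of cell type markers. Deviations from the group means were correlated over the 24 libraries, with permutation within groups (100000 draws) and Benjamini-Hochberg adjustment over the 90 relations. Of these, 18 passed by both r and rho: 5 of Metrnl, 4 of S100b, 3 each of Nrg4 and Vegfa, and 1 each of Fgf21, Gdf15 and Ptgds. Metrnl, S100b, Nrg4 and Vegfa thus varied with more than 1 list. The lists were not adjusted for each other, so no relation is shown to be particular to its list. The permutation treated the 6 TZP libraries as alike, although libraries 3 to 6 stood apart by length slope. Brown adipocyte markers averaged 11.7 and 11.4 in TZP 1 and 2 and from 10.7 to 11.1 in TZP 3 to 6. Mural cell markers averaged 7.47 and 7.33 against 6.93 to 7.24. The part of this split in the relations was not tested. Metrnl varied with the macrophage markers: r was 0.897 and Spearman's rho 0.887, both with a permutation p of 1e-05, the smallest the draws can give (adjusted p = 0.00045 and 0.0009). Without the 2 libraries farthest from the median of the markers r was 0.897, and within the groups it was 0.826 in Vehicle, 0.936 in LAGIPRA, 0.983 in TZP and 0.875 in PairFedVehicle. Metrnl also varied with the fibroblast markers (r of 0.730, rho of 0.683, adjusted p of 0.00338 and 0.00945) and against the mural cell markers (r of -0.769, rho of -0.756, adjusted p of 0.00054 and 0.0021), those of brown adipocytes (r of -0.645, rho of -0.573, adjusted p of 0.0153 and 0.0471) and those of Schwann cells (r of -0.598, rho of -0.634, adjusted p of 0.0269 and 0.0227). Vegfa varied with the brown adipocyte markers: r was 0.879 (permutation p = 1e-05, adjusted p = 0.00045) and rho 0.826 (permutation p = 3e-05, adjusted p = 0.0012). Without the 2 farthest libraries r was 0.797, and within groups it was 0.790, 0.826, 0.954 and 0.738 in the same order. Vegfa also varied with the mural cell markers (r of 0.827, rho of 0.727, adjusted p of 0.00257 and 0.00954), with r of 0.633 without the 2 farthest libraries. It varied against the neuron markers (r of -0.766, rho of -0.706, adjusted p of 0.00054 and 0.00501), with r of -0.700 without the 2 farthest. Of the 7 listed neuron markers only 4 were in the table, and Npy was at 0 in some library. The mean of these markers was low, from 2.62 to 4.38. S100b varied against the fibroblast markers (r of -0.733, rho of -0.709, adjusted p of 0.00054 and 0.0021) and with those of mural cells (r of 0.683, rho of 0.754, adjusted p of 0.0204 and 0.00954) and brown adipocytes (r of 0.647, rho of 0.612, adjusted p of 0.0269 and 0.0427). It also varied against the macrophage markers, with r of -0.710 (permutation p = 0.00038, adjusted p = 0.0038), rho of -0.756 (permutation p = 8e-05, adjusted p = 0.0018) and r of -0.708 without the 2 farthest libraries. With the Schwann cell markers S100b gave r of 0.378 (permutation p = 0.0774, adjusted p = 0.196) and rho of 0.466 (permutation p = 0.0294, adjusted p = 0.0945). Fgf21 varied with the brown adipocyte markers (r of 0.695, permutation p = 0.00063, adjusted p = 0.00567, and rho of 0.627, permutation p = 0.00372, adjusted p = 0.0276), with r of 0.636 without the 2 farthest libraries. Nrg4 varied against the macrophage markers (r of -0.736, rho of -0.787, adjusted p of 0.0015 and 0.0012) and the fibroblast markers (r of -0.585, rho of -0.550, adjusted p of 0.0270 and 0.04955). It varied with the mural cell markers (r of 0.516, rho of 0.581, adjusted p of 0.0115 and 0.0276). Gdf15 varied with the brown adipocyte markers (r of 0.525, rho of 0.583, adjusted p of 0.0270 and 0.0276). Ptgds varied against the fibroblast markers (r of -0.591, rho of -0.590, adjusted p of 0.0270 and 0.0427). Of the relations given with adjusted p alone, the permutation p ran from 3e-05 to 0.00991. Without the 2 farthest libraries their r ran from -0.724 to -0.458 for those below 0 and from 0.495 to 0.690 for those above 0. Not every relation that passed held within each group. Metrnl with the brown adipocyte markers gave r of 0.224 in LAGIPRA, and Ptgds with the fibroblast markers 0.037 in TZP. Both were opposite in sign to the r over all libraries. In LAGIPRA, r was 0.152 for Vegfa with the mural cell markers and 0.124 for S100b with the brown adipocyte markers. Ptgds gave r of 0.213 and rho of 0.289 with the brown adipocyte markers (permutation p of 0.268 and 0.186, adjusted p of 0.467 and 0.356). For that relation r was 0.938 in Vehicle, 0.184 in LAGIPRA, -0.397 in TZP and 0.795 in PairFedVehicle, and 0.490 without the 2 farthest libraries.

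**Figure D5:**
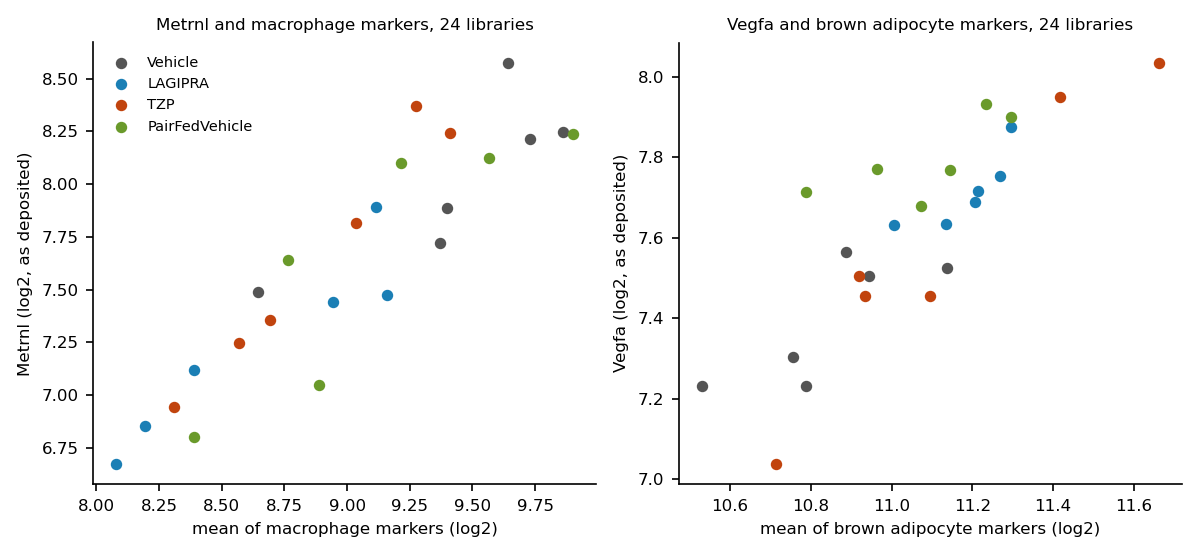
Each point is 1 of 24 libraries, coloured by group. Left, the log2 value of Metrnl against the mean log2 value of 7 macrophage markers; right, Vegfa against that of 9 brown adipocyte markers. Within each group the values rise along the horizontal axis, and the LAGIPRA libraries sit to the left of most Vehicle libraries in the left panel.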

How the data were processed

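The table as deposited gave 1 value per gene and library, taken to be log2 expression that the authors had quantile normalized; this was inferred from the values. The submitters' processing notes name cutadapt 1.9.1 and GSNAP without their roles, and the genome build, annotation, counter and strand setting are not given in the sources used here. RNA was extracted with TRIzol and a lipid RNeasy kit and selected for polyA, per the labels' protocols. Library depth is unknown and was approximated only by the value taken for 1 read, which was inferred as the most frequent low value of each library. Quantile normalization gives genes of equal rank equal values, so a global shift in RNA would not be seen.

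Genes below the 25% quantile of mean expression (2.86) were left out. All 24 libraries were fitted with limma 3.58.1 in R 4.3.3, 1 mean per group, empirical Bayes with a mean-variance trend, and Benjamini-Hochberg adjustment over 17263 genes at 0.05, two-sided. The code was tested on simulated data. Length slopes used GENCODE M21 transcript lengths, known for 15407 tested genes (89.2%). Alternatives covered filters, variance models, weights, centring, the offset, covariates, length correction, a replicate block and removal of libraries; for pathway genes they were applied after seeing the data. Named pathway genes were those with the smallest p in a list, up to 3, or bearing on a member. In the sample descriptions the running codes follow the groups, so an order effect cannot be told apart from treatment. The members and lists were chosen with earlier results of these data known. Figures used matplotlib 3.10.9.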

Additional observations from a re-analysis of the deposited data

Results flagged for a closer look

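Bmp8b in LAGIPRA replicate 3 stood apart from the other libraries of its group: its log2 value was 2.64, while the other 5 ran from 3.85 to 4.35. The gap to the nearest library was 0.711 of the group's range. Without this library the difference between LAGIPRA and PairFedVehicle passed (1.40, adjusted p = 0.0424, limma). Over the 36 combinations of gene and group examined, this was the 1 that stood out, and chance gives about 1 in 20.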

How the results depend on the processing

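Of the 16 member calls, 7 passed in all settings and removals of 1 library: Nrtn, S100b and Ptgds with pair feeding, and S100b and Ptgds in both drugs against the pair-fed group. The filter at the median left out Bmp8b and Fgf21, so it gave no value for them. None of the member calls turned sign. Libraries of the same number did not deviate together (median correlation -0.000378 over 36 pairs, lowest -0.602), and 5 of 24 libraries correlated best with their own number, so the numbers were not taken to pair samples. With the replicate block, Nrg4 in TZP (adjusted p = 0.0609) and S100b in LAGIPRA (adjusted p = 0.0603) against Vehicle no longer passed, and 23 genes in place of 69 passed between TZP and LAGIPRA.

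The count of genes passing between TZP and LAGIPRA was 15 without the filter, 15 without the variance trend, 3 with only the 2 groups, 1071 with array weights, 268 with the value of 1 read, 0 with the length slope, 23 without the libraries low in muscle and 2 from TZP libraries 1 and 2. For TZP against Vehicle (3805) it was 2514 with only the 2 groups, 2486 with the value of 1 read (803 higher and 1683 lower, against 2021 and 1784), 175 with the length slope and 817 from TZP libraries 1 and 2. For TZP against PairFedVehicle (2832) it was 1503, 892 and 1031 with only the 2 groups, the length slope and TZP libraries 1 and 2. For LAGIPRA against Vehicle (2370) it was 4783 with array weights, 45 with the value of 1 read and 1233 without the libraries low in muscle. For LAGIPRA against PairFedVehicle (2046) it was 3260 with array weights and 1268 with the value of 1 read. Members passing fell to 0 in LAGIPRA against Vehicle with the value of 1 read, and to 1 in TZP against Vehicle both with the length slope and from TZP libraries 1 and 2. The fits with fewer groups or libraries hold fewer samples, and for the others the cause was not tested.

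These changes turned sign, none of a member having passed. With array weights they were Fgf21 -0.087 in PairFedVehicle against Vehicle, Metrnl -0.033 in TZP against PairFedVehicle and Nrtn 0.0044 in TZP against LAGIPRA. With the value of 1 read they were S100b -0.0027, Fgf21 -0.29 and Metrnl 0.082 in TZP against Vehicle, Fgf21 -0.53 in LAGIPRA and -0.14 in PairFedVehicle against Vehicle, Nrg4 -0.024 and Fgf21 -0.15 in TZP against PairFedVehicle, Fgf21 -0.39 in LAGIPRA against PairFedVehicle and Ptgds 0.0022 in TZP against LAGIPRA. With the length slope they were Gdf15 0.041 in TZP against Vehicle, Nrtn -0.17, Metrnl -0.35 and Vegfa 0.12 in TZP against PairFedVehicle and Vegfa 0.18 in TZP against LAGIPRA. With the length correction Metrnl was -0.0093 in TZP against PairFedVehicle. Without the libraries low in muscle Nrtn was -0.082 in TZP and -0.0086 in LAGIPRA against PairFedVehicle, and Ptgds 0.026 in TZP against LAGIPRA. From TZP libraries 1 and 2, Gdf15 was 0.16 against Vehicle, Nrtn -0.18, Metrnl -0.51 and Vegfa 0.20 against PairFedVehicle, and S100b 0.026, Metrnl -0.091 and Vegfa 0.28 against LAGIPRA. Among pathway genes that had passed, those that turned sign with the length slope were Acvr2a (0.21), Flt1 (0.17) and Kdr (0.28) in TZP against Vehicle, and from TZP libraries 1 and 2 Acvr2a (0.074) and Kdr (0.055) against Vehicle and Acvr2a (0.021), Flt1 (0.11), Kdr (0.025) and Nrp2 (0.012) against PairFedVehicle.

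Leaving out 1 library at a time, the count of genes ran from 945 to 3819 in LAGIPRA against Vehicle and from 0 to 1088 in TZP against LAGIPRA. Changes that crossed 0 ran, against Vehicle, from -0.50 to 0.070 (Bmp8b, LAGIPRA), -0.053 to 0.59 (Fgf21, LAGIPRA) and -0.15 to 0.49 (Fgf21, PairFedVehicle). Against PairFedVehicle they ran from -0.025 to 0.18 (Nrtn, TZP), -0.070 to 0.35 (Gdf15, TZP), -0.17 to 0.15 (Metrnl, TZP), -0.0086 to 0.19 (Nrtn, LAGIPRA) and -0.11 to 0.26 (Fgf21, LAGIPRA). In TZP against LAGIPRA they ran from -0.092 to 0.050 (Nrtn), -0.073 to 0.38 (Fgf21) and -0.12 to 0.11 (Ptgds).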

Other observations

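Among listed genes not described above, Ddit4 and Sesn2, stress-induced inhibitors of the kinase mTORC1, were lower in LAGIPRA than in the pair-fed group (log2 change -0.93, adjusted p = 0.0069, and -0.56, adjusted p = 0.0154, limma), and both differences passed under all alternatives. Sesn2 was also higher with pair feeding than with vehicle (0.49, adjusted p = 0.0397), a call that ended in 4 other settings and when any of Vehicle 1, 2, 3 or 6 or PairFedVehicle 1, 2 or 4 was left out (adjusted p from 0.0541 to 0.107). Fst, the gene for follistatin, which binds activins and some BMPs, was lower in TZP than in the pair-fed group (-0.79, adjusted p = 0.0137). That call ended in a fit of only these 2 groups (adjusted p = 0.0516) and from TZP libraries 1 and 2 (-0.97, adjusted p = 0.0600). Fst was also higher with pair feeding than with vehicle (0.76, adjusted p = 0.0294), which ended in 3 other settings and without Vehicle 3, 4 or 6 or PairFedVehicle 1, 2 or 5 (adjusted p from 0.0526 to 0.0838).

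Bmp2, another bone morphogenetic protein gene, was lower with pair feeding than with vehicle (-0.60, adjusted p = 0.0290) and higher in LAGIPRA than in the pair-fed group (0.62, adjusted p = 0.0189). The first call ended with the replicate block (adjusted p = 0.0516) and without Vehicle 5 or 6 or PairFedVehicle 2, 3 or 4 (0.0524 to 0.0781). The second ended in 2 other settings and without LAGIPRA 4 or PairFedVehicle 3 or 4 (0.0515 to 0.0585). Angptl4, which encodes an inhibitor of lipoprotein lipase, was lower with pair feeding than with vehicle (-0.55, adjusted p = 0.0288) and higher in LAGIPRA than in the pair-fed group (0.48, adjusted p = 0.0463). The first ended without Vehicle 2 or 6 or PairFedVehicle 3 or 6 (0.0561 to 0.0770). The second ended in 4 other settings and without LAGIPRA 3, 4 or 5 or PairFedVehicle 2, 3, 5 or 6 (0.0658 to 0.125). The neurotrophin receptor genes Ntrk2 and Ntrk3 were higher in LAGIPRA than in Vehicle (0.33, adjusted p = 0.0383, and 0.63, adjusted p = 0.0402). These calls ended in 2 and 4 other settings, the value of 1 read among them, and without Vehicle 1, 3 or 6 or LAGIPRA 4, 5 or 6 (0.0728 to 0.0966 for Ntrk2, and 0.0545 to 0.107 for Ntrk3, which also ended without LAGIPRA 3).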
